A study of Mus musculus with 15 samples.

Results

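Stretches of the genome that carried a Mel18 peak in mesoderm precursors but not in embryonic stem cells, and that also carried Cbx2 and Ring1b peaks in the precursors, are described here and called gained regions. Peaks of 5 deposited lists that overlapped by at least 1 bp were merged on chromosomes 1 to 19, which gave 11871 regions, of which 376 met the rule (3.17%). The members were therefore chosen from the presence and absence of peaks in 4 of the lists, and the RYBP list entered only through the merging. Without the RYBP list in the merging, the rule gave 377 regions. RYBP peaks were present at 298 of the 376 gained regions and absent from 78. The lists came from early cardiac mesoderm precursors (MES), in which Mel18, Cbx2, Ring1b and RYBP were each mapped by ChIP-seq, and from undifferentiated embryonic stem cells (ESCs), in which Mel18 was mapped. MES were differentiated with BMP4 from the same mouse line, E14Tg2A, that was grown as ESCs in 2i medium with LIF, and the same lot of Mel18 antibody was used in both. Each list belonged to 1 sample, read depth was unknown, and no expression or IgG library was used. Cbx2, Ring1b and RYBP in ESCs were not analysed here, so "gained" refers to the Mel18 call alone.

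Polycomb repressive complex 1 (PRC1) is a chromatin complex that holds developmental genes silent. Ring1b is its E3 ligase, which ubiquitinates histone H2A, and Mel18 (Pcgf2) is a PCGF subunit that pairs with Ring1b. Cbx2 is part of canonical PRC1 and carries a chromodomain that recognises the histone methylation set by PRC2, whereas RYBP belongs to variant PRC1, and RYBP and CBX proteins compete for the same surface of Ring1b. Peaks of Cbx2 and RYBP in 1 region can therefore come from different complexes, different alleles or different cells, which peak lists cannot tell apart.

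Both partners were listed at a minority of the regions with Mel18 in MES alone. Of 1087 regions with a MES Mel18 peak and no ESC Mel18 peak, 376 had Cbx2 and Ring1b peaks (34.6%, exact 95% interval 31.8 to 37.5). The other 711, called partial regions here, comprised 210 with Ring1b and without Cbx2, 81 with Cbx2 and without Ring1b, and 420 with neither. Where an ESC Mel18 peak was present as well, 2017 of 2479 regions with MES Mel18 had both partners (81.4%, interval 79.8 to 82.9), and these 2017 are called kept regions. Gained regions made up 15.7% of the 2393 regions with Mel18, Cbx2 and Ring1b in MES (interval 14.3 to 17.2). Because the rule used these peaks, the shares describe the lists and were not tested.

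The gained regions were mostly a few kilobases long. Their length ranged from 841 to 12360 bp, with a median of 2646 bp and quartiles of 1946 and 3563 bp. Kept regions had a median of 3744 bp, and partial regions a median of 1064 bp. A region is the union of all peaks in it, so classes that need peaks of more lists are longer by construction. In all, the gained regions covered 1.13 Mb and the kept regions 11.2 Mb. Regions of 10 kb or more numbered 3 among the gained and 224 among the kept. Within a gained region, MES Mel18 peaks covered a median of 1738 bp, Cbx2 peaks 2395.5 bp, Ring1b peaks 1602.5 bp and, where present, RYBP peaks 1649.5 bp. In kept regions Mel18 peaks covered a median of 2966 bp, Cbx2 peaks 3500 bp, Ring1b peaks 2572 bp and, where present, RYBP peaks 2153.5 bp.

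**Figure D1:**
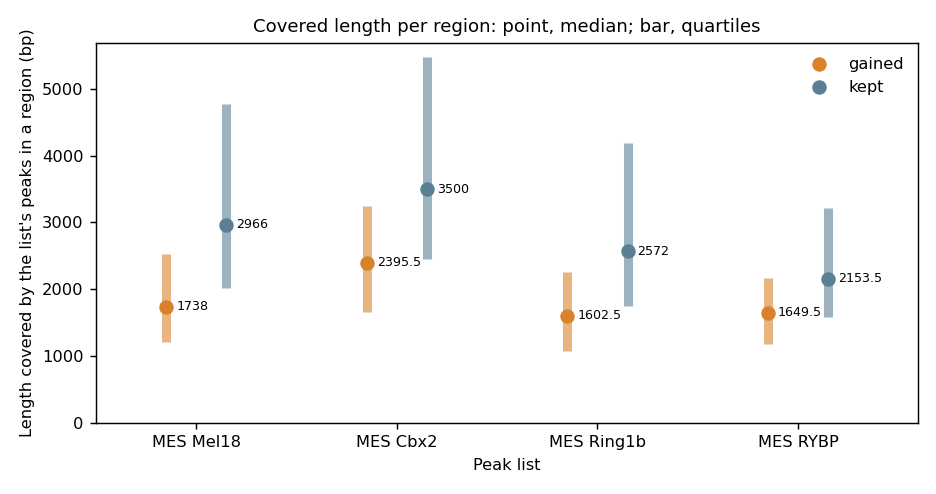
Length covered by the peaks of each MES list per region, in bp, in gained regions (left of each pair) and kept regions (right), with the median as a point and the quartiles as a bar. Cbx2 covered the most sequence in both classes, with medians of 2395.5 bp in gained and 3500 bp in kept regions.

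Within each MES list, gained regions had a lower median rank than kept regions. Each peak was placed within its own list by the authors' score, and its percentile is the percentage of that list's peaks that scored no higher. The MES lists held 4165 Mel18, 3679 Cbx2, 8641 Ring1b and 7614 RYBP peaks, so percentiles are compared between regions of the same list and not across lists. The highest Mel18 peak of a gained region had a median percentile of 47.7 (quartiles 31.1 and 62.4), and the highest Cbx2 peak a median of 47.3. The median was 64.1 for Ring1b, and 65.9 for RYBP over the 298 regions that had it. In kept regions the median percentile of Mel18 was 71.8, that of Cbx2 68.4, that of Ring1b 84.7 and that of RYBP 77.6. Gained regions were a smaller share of the regions with Mel18, Cbx2 and Ring1b as the Mel18 score went up: 196 of 599 in the lowest score quartile (32.7%), 115 of 598 in the second (19.2%), 47 of 598 in the third (7.86%) and 18 of 598 in the highest (3.01%).

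Few gained regions ranked high in all 3 lists of the MES part of the rule. Mel18, Cbx2 and Ring1b all lay in the upper 25% of their lists at 31 gained regions, and all in the lower 50% at 73. Singly, Mel18 lay in its upper 25% at 34 gained regions, Cbx2 at 41 and Ring1b at 115. Of the 2017 kept regions, 760 had all in the upper 25% and 96 all in the lower 50%. The lists differ in length, so these cuts are not alike across them. The score of 3100, at which values pile up in these lists, was reached by Mel18 at 7 gained regions, by Cbx2 at 5 and by Ring1b at 3, and all of these regions had RYBP. The ranks of the subunits followed each other less closely in gained than in kept regions. Spearman's rho between Mel18 and Cbx2 scores was 0.68 over 376 gained regions, against 0.91 over 2017 kept regions. Between Mel18 and Ring1b scores it was 0.55 over gained and 0.91 over kept regions. Between Ring1b and RYBP scores it was 0.47 over 298 gained and 0.59 over 1880 kept regions. Between Mel18 and RYBP scores it was 0.18 over gained and 0.47 over kept regions. The points of each correlation share 2 libraries, so these values are descriptions.

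The peaks of the subunits were stacked on each other, with Cbx2 peaks most often covering the most sequence. In 371 of 376 gained regions the extents of the Mel18, Cbx2 and Ring1b peaks shared at least 1 base. Regions were built from overlapping peaks, so this count is largely set by the merging and the rule. Cbx2 peaks covered the most sequence of the 4 MES lists in 256 gained regions (68.1%), Mel18 in 72, Ring1b in 30 and RYBP in 18. In kept regions Cbx2 covered the most in a similar share (70.1%), so this is not particular to gained regions. Read depth and caller settings were unknown, so lengths in different lists may not be alike and do not measure the spread of binding. The median ratio of Cbx2 to Mel18 length was 1.27 in gained regions and 1.12 in kept regions. For Ring1b it was 0.885 in gained and 0.887 in kept regions. For RYBP it was 0.828 in gained regions with RYBP and 0.702 in kept regions with RYBP. Cbx2 spanned the whole Mel18 extent in 170 gained regions (45.2%), and Ring1b lay wholly within it in 144 (38.3%). In kept regions Cbx2 spanned the Mel18 extent in 46.9%, and Ring1b lay within it in 49.7%. The centre of the highest Ring1b peak lay a median of 209.5 bp from that of the highest Mel18 peak, the centre of Cbx2 272.5 bp and the centre of RYBP 335.75 bp. In kept regions the Ring1b centre lay a median of 222.5 bp away, the Cbx2 centre 253 bp and the RYBP centre 345.5 bp. The RYBP centre fell inside the Mel18 extent at 255 of 298 gained regions (85.6%), and in the middle 50% of it at 204.

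**Figure D2:**
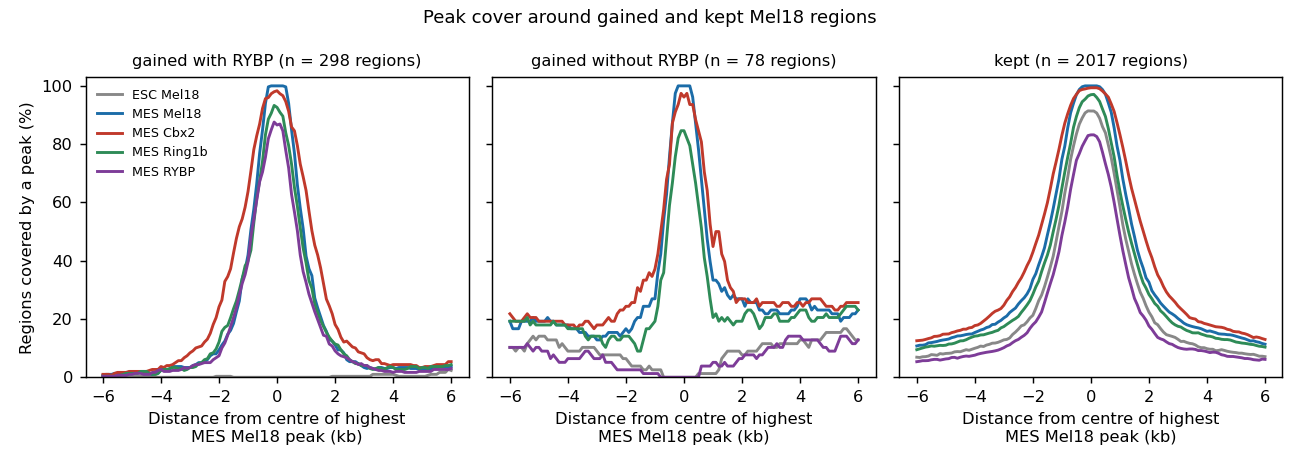
Percentage of regions covered by a peak of each list, against the distance in kb from the centre of the highest MES Mel18 peak, for gained regions with RYBP, gained regions without RYBP and kept regions. At 2000 bp from the centre, MES Mel18 peaks covered 10.2% of gained regions with RYBP, 21.8% of those without RYBP and 33.1% of kept regions.

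The profile of peak cover separated both kinds of gained region by what lay around them. With RYBP, cover by Mel18 was 41.8% at 1000 bp from the Mel18 centre, 10.2% at 2000 bp and 2.18% at 5000 bp, and ESC Mel18 cover at 5000 bp was 0.503%. Without RYBP, Mel18 cover was 30.1% at 1000 bp, 21.8% at 2000 bp and still 21.2% at 5000 bp, with Cbx2 at 21.8% and Ring1b at 19.2% there. ESC Mel18 peaks, which the rule keeps out of the region itself, covered 14.7% of these flanks at 5000 bp and RYBP peaks 9.62%. Kept regions had 13.5% Mel18 and 8.33% ESC Mel18 cover at that distance.

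The gained regions with RYBP that ranked highest by the mean percentile of Mel18, Cbx2 and Ring1b were broad. The first lay on chromosome 1 (138841021 to 138852709), where Cbx2 covered all 11689 bp, Mel18 10568 bp, Ring1b 10105 bp and RYBP 5715 bp, and the nearest ESC Mel18 peak was 285148 bp away. On chromosome 14 (65203496 to 65212103), Ring1b covered 8449 bp, Cbx2 8334 bp, Mel18 7955 bp and RYBP 5962 bp. On chromosome 18 (36439894 to 36448074), Mel18 covered 8165 bp, Ring1b 8079 bp, Cbx2 7893 bp and RYBP 6160 bp. In these 3 regions the scores of Mel18, Cbx2 and Ring1b were all 3100, so their order among themselves is set by length. In all of them RYBP covered the least sequence.

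The next regions kept high Mel18 ranks but differed in RYBP. On chromosome 11 (120044862 to 120052282), RYBP covered 6398 bp, close to the 6240 bp of Ring1b, with Mel18 at 7339 bp. On chromosome 5 (148032170 to 148039742), where the Mel18 percentile was 99.9, the RYBP percentile was 58.7 and RYBP covered 2249 bp of a region in which Mel18 covered 6955 bp. RYBP ranked far higher on chromosome 4 (82147928 to 82159908), at a percentile of 98.9, and covered 5488 bp there against 11830 bp of Mel18. On chromosome 1 (121314001 to 121321122) the RYBP percentile was 96.9, and the nearest ESC Mel18 peak was 455162 bp away. The last of the 8 lay on chromosome 5 (28534553 to 28539294), where Mel18 had a percentile of 88.9, Cbx2 of 88.2, Ring1b of 92.5 and RYBP of 86.9.

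The longest gained region did not rank among these. It lay on chromosome 10 (80391227 to 80403586), where Cbx2 covered 11986 of 12360 bp and Mel18 5506 bp, with percentiles of 61.3 for Cbx2, 67.0 for Mel18 and 37.7 for RYBP. The regions on chromosome 4 and chromosome 1 named above followed at 11981 and 11689 bp. The region on chromosome 7 (147129279 to 147138770) spanned 9492 bp, of which Cbx2 covered 9382 bp and RYBP 3450 bp, and that on chromosome 14 spanned 8608 bp.

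RYBP was less frequent at gained than at kept regions, although both classes carried Mel18, Cbx2 and Ring1b in MES. RYBP peaks were present at 298 of 376 gained regions (79.3%, exact interval 74.8 to 83.2) and at 1880 of 2017 kept regions (93.2%, interval 92.0 to 94.3). Over all merged regions the share was 56.3%, and over all regions with a MES Mel18 peak it was 76.4%. The odds ratio of gained over kept regions was 0.278 (95% interval 0.205 to 0.377, Fisher's exact test, two-sided, p = 5.81e-15, 1 comparison). The test treats regions as independent and compares 1 RYBP list between classes of regions, so it does not measure the spread between cultures. The classes it compares were chosen with earlier results of these data known.

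The size of this difference moved when peak strength was stratified and when gained regions near ESC Mel18 peaks were left out. Stratified by quartile of Mel18 score the odds ratio was 0.457, and by Mel18 length 0.476. By Ring1b score it was 0.579 (interval 0.419 to 0.799) and by Cbx2 score 0.419. All stayed below 1 with intervals that did not reach it. Each pools its quartiles into a single value, and the quartiles of Mel18 score differed, as given below. In lists cut to equal length the odds ratio was 0.450. For gained regions over 10 kb from any ESC Mel18 peak it was 0.510, against all 2017 kept regions, which were not limited by distance. RYBP was at 87.5% of these gained regions. Kept regions over 10 kb from another region with ESC Mel18 had it at 94.95%, and no odds ratio against those was computed. In the lowest Mel18 quartile RYBP was present at 81.1% of gained regions (interval 74.9 to 86.3) and 85.4% of kept regions (interval 81.5 to 88.7). In the second quartile the shares were 73.0% of gained and 90.1% of kept regions, and in the third 78.7% of gained and 95.8% of kept regions. In the highest, all 18 gained regions had RYBP (interval 81.5 to 100%), against 573 of 580 kept regions (98.8%). No setting took peak strength and distance together, so their joint part in the difference was not tested.

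Among regions with a MES Mel18 peak and no ESC Mel18 peak, RYBP went more with Ring1b than with Cbx2. With both partners RYBP was present at 79.3%, with Ring1b and without Cbx2 at 137 of 210 regions (65.2%, interval 58.4 to 71.7), and with Cbx2 and without Ring1b at 23 of 81 (28.4%, interval 18.9 to 39.5). With neither partner it was present at 45 of 420 regions (10.7%, interval 7.92 to 14.1). Over all merged regions the share was 56.3%. The same order of partners held where an ESC Mel18 peak was present, at 93.2% with both and 82.3% with Ring1b. It was 61.9% with Cbx2 (26 of 42, interval 45.6 to 76.4) and 41.4% with neither (29 of 70, interval 29.8 to 53.8), and these 2 intervals overlap. Without an ESC Mel18 peak, MES Mel18 peaks covered a median of 1738 bp with both partners, 1338.5 bp with Ring1b, 1063 bp with Cbx2 and 713.5 bp with neither. The median MES Mel18 percentile was 47.7 with both, 21.8 with Ring1b, 28.1 with Cbx2 and 11.3 with neither. The Ring1b list held 8641 peaks and the Cbx2 list 3679, so absence from one is not like absence from the other. Differences between these shares, and the part of list length, Mel18 cover or rank in them, were not tested.

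**Figure D3:**
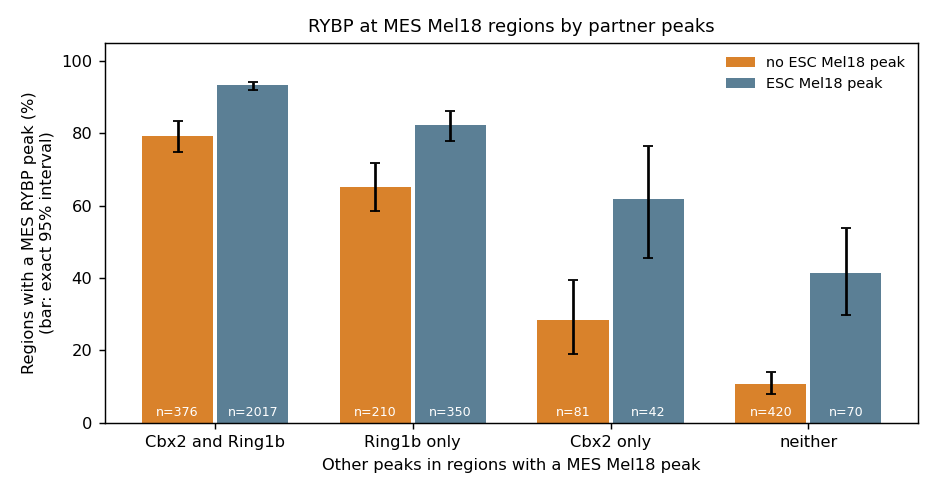
Percentage of regions with a MES RYBP peak, by the other peaks in regions with a MES Mel18 peak, without an ESC Mel18 peak (left of each pair) and with one (right), with exact 95% intervals and the number of regions in each bar. Gained regions are the first bar, at 79.3%, and kept regions the second, at 93.2%.

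Within the gained regions, the RYBP share was lowest in the lowest quartile of Ring1b score; these shares were not tested. Across quartiles of Ring1b score, each of 94 gained regions, RYBP was present at 57 (60.6%, interval 50.02 to 70.6), 74 (78.7%), 81 (86.2%) and 86 regions (91.5%, interval 83.9 to 96.3). Among those more than 10 kb from an ESC Mel18 peak, RYBP was present at 55 of 73 (75.3%, interval 63.9 to 84.7), 65 of 72 (90.3%), 72 of 80 and 81 of 87 regions (93.1%, interval 85.6 to 97.4), so the upper 3 quartiles lay close together there. Across quartiles of Mel18 score it was present at 75 (79.8%), 79 (84.0%), 69 (73.4%) and 75 regions (79.8%). Across quartiles of Cbx2 score it was present at 74 (78.7%), 67 (71.3%), 73 (77.7%) and 84 regions (89.4%). Gained regions with RYBP had a median Ring1b percentile of 67.6, against 46.3 in those without RYBP, while the median Mel18 percentile was 45.8 with RYBP and 51.1 without. Mel18 peaks covered a median of 1856 bp in gained regions with RYBP and 1434.5 bp in those without.

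The gained regions without RYBP that ranked highest, out of 78, reached lower percentiles than those with RYBP, out of 298. A smaller class has fewer members that can rank high, and this difference was not tested. The first region without RYBP lay on chromosome 6 (51954797 to 51957842), 142094 bp from the nearest ESC Mel18 peak. Its percentiles were 79.6 for Mel18, 76.3 for Cbx2 and 82.7 for Ring1b. The second, on chromosome 1 (19085817 to 19087743), had the highest Ring1b percentile of the 78, at 86.9, and lay 4891 bp from an ESC Mel18 peak. On chromosome 17 (71165391 to 71169295), Cbx2 covered all 3905 bp, Mel18 2991 bp and Ring1b 3063 bp.

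The remaining regions of this rank differed mostly in their surroundings. On chromosome 10, the region from 21870747 to 21872472 lay 574 bp from an ESC Mel18 peak, whereas that from 67741123 to 67743883 lay 442546 bp from one. The regions on chromosome 15 (79345772 to 79348553) and chromosome 4 (88916189 to 88917652) lay 2839 and 546 bp from ESC Mel18 peaks. On chromosome 5 (120750042 to 120754773) the distance was 17607 bp, and Cbx2 covered all 4732 bp of the region, Mel18 3416 bp and Ring1b 1778 bp. Of these 8 regions, 4 therefore lay within 10 kb of an ESC Mel18 peak, whereas none of the 8 highest-ranking regions with RYBP did. Over all gained regions, 39 of the 78 without RYBP and 25 of the 298 with RYBP lay within 10 kb. The counts among the ranked regions were thus close to the shares of their classes.

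Most gained regions lay more than 10 kb from any ESC Mel18 peak, and RYBP was listed less often at the 64 that did not. The nearest ESC Mel18 peak was a median of 91900 bp away (quartiles 20165 and 231827 bp), and 312 of 376 gained regions lay more than 10 kb from one (83.0%, interval 78.8 to 86.6). Of the partial regions, 548 of 711 lay as far (77.1%, interval 73.8 to 80.1). Most kept regions, 1605 of 2017, likewise lay over 10 kb from another region with ESC Mel18, so this distance is not particular to gained regions. RYBP was present at 25 of the 64 gained regions within 10 kb of an ESC Mel18 peak (39.1%, interval 27.1 to 52.1) and at 273 of the 312 farther away (87.5%, interval 83.3 to 91.0). The split of RYBP by this limit was chosen after the values were seen and was not tested. By steps of distance RYBP was present at 1 of 12 regions up to 1 kb from an ESC Mel18 peak, 24 of 52 from 1 to 10 kb (46.2%), 67 of 78 from 10 to 50 kb (85.9%), 111 of 127 from 50 to 200 kb (87.4%) and 95 of 107 beyond (88.8%). Kept regions were also lower in RYBP where another region with ESC Mel18 lay within 10 kb, at 356 of 412 (86.4%, interval 82.7 to 89.6), against 1524 of 1605 elsewhere (94.95%, interval 93.8 to 96.0).

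**Figure D4:**
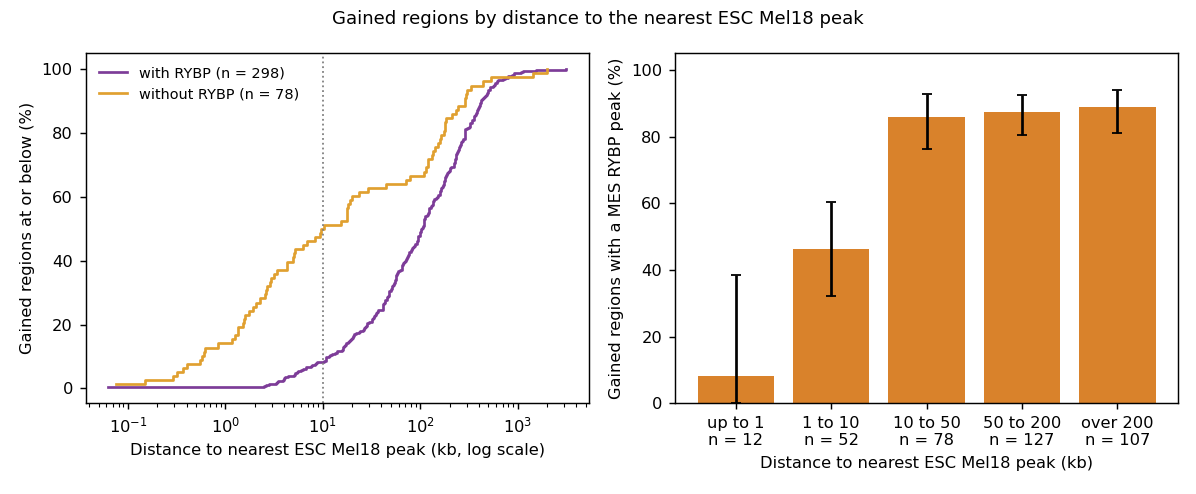
Left, cumulative percentage of gained regions with RYBP (298) and without RYBP (78) by distance in kb to the nearest ESC Mel18 peak, on a log axis with a dotted line at 10 kb. Right, percentage of gained regions with a RYBP peak in steps of that distance, with exact 95% intervals; the share was 46.2% or lower within 10 kb and 85.9% or higher beyond it.

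The gained regions near ESC Mel18 peaks mostly flanked kept regions. Of the 64, 50 lay within 10 kb of a kept region. Their median Mel18 percentile was 50.9, against 46.0 for those farther away, and Mel18 peaks covered a median of 1539.5 bp in them against 1800.5 bp. Their Ring1b percentile had a median of 57.8, against 66.5 farther away. Of the 39 near regions without RYBP, 35 had a RYBP peak outside the region but within 10 kb, at a median distance of 3014 bp over the 39. Of the 39 regions without RYBP that lay farther from ESC Mel18, 7 had a RYBP peak within 10 kb, and the median distance was 60045 bp.

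The border of the rule was set by the ESC Mel18 call. Just inside it, a gained region on chromosome 12 (110687269 to 110689846) with RYBP lay 63 bp from an ESC Mel18 peak. Gained regions without RYBP on chromosome 10 (82798524 to 82799550) and chromosome 2 (147021798 to 147024036) lay 76 and 150 bp from one. Just outside it, ESC Mel18 overlapped the other peaks of a kept region on chromosome 6 (85323239 to 85325292) by 45 bp. The overlap was 209 bp in a kept region on chromosome 11 (110197766 to 110199812) and 219 bp in one on chromosome 3 (142762470 to 142764683). Such cases were few, with 12 gained regions within 1 kb of an ESC Mel18 peak, and ESC and MES Mel18 peaks overlapped directly in 2009 of 2017 kept regions. Farthest from ESC Mel18 were regions on chromosome 8 (55161982 to 55164534), at 3159467 bp, and on chromosome 11 (9017777 to 9020190, without RYBP, and 8523579 to 8525779, with RYBP), at 1993285 and 1558516 bp.

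A region with no ESC Mel18 peak can still have held signal below the calling limit, which peak lists do not show. Among the 586 kept regions whose Mel18 percentile fell between the quartiles of the gained regions, the ESC Mel18 score had a median of 253 and ranged from 50.4 to 3100, and 104 (17.7%) scored below 100. The lowest score in the ESC list was 50.01. Kept regions hold a called ESC Mel18 peak by rule, so their scores cannot show signal below the limit at gained regions.

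Gained regions were scattered over all 19 chromosomes, mostly singly. Chromosome 4 held the most, with 42, followed by chromosome 11 with 38, chromosome 7 with 34 and chromosome 5 with 30. As a share of gained and kept regions, gained regions made up 23.9% on chromosome 4 (interval 17.8 to 30.9), 21.6% on chromosome 17 and 21.1% on chromosome 7, but 7.26% on chromosome 6 (interval 3.37 to 13.3) and 7.84% on chromosome 13 (interval 3.45 to 14.9). The share over all chromosomes, 15.7%, lay outside the intervals of chromosomes 2, 4, 6 and 13 (19 intervals, not adjusted for their number). With gaps of up to 50 kb joined, 328 gained regions stood alone, 36 were in pairs and 12 in 4 groups of 3. The most compact group lay on chromosome 1 (19209202 to 19219289) with 3 regions in 10088 bp, none of which had RYBP. Groups of 3 on chromosome 17 (29594438 to 29640728) and chromosome 7 (3365184 to 3426015) had RYBP at 2 and 3 regions, and no kept region lay within any of these groups.

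**Figure D5:**
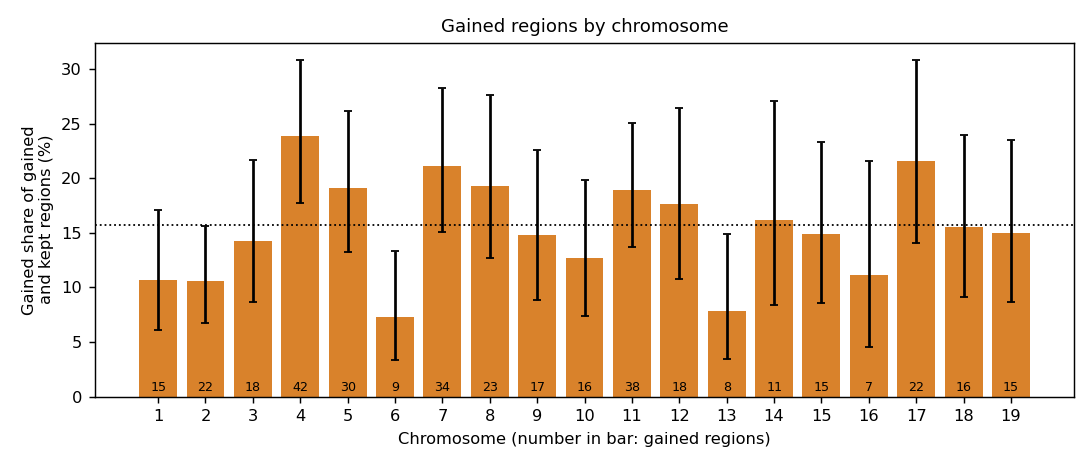
Gained regions as a percentage of gained and kept regions on each of chromosomes 1 to 19, with exact 95% intervals and the number of gained regions in each bar; the dotted line is the share over all chromosomes, 15.7%. Chromosome 4 had the highest share, 23.9%, and chromosome 6 the lowest, 7.26%.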

How the data were processed

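ChIP-seq peak lists of 5 samples were used, 1 per list; the other samples of the series were not analysed here. Reads were placed on the mm9 build, with Bowtie and TopHat named, per the submitters' processing notes; peak names in the deposited files carry the tag of MACS. For the caller, the version, settings, control and any pooling of replicates are not given in the sources used here. Each score in the deposited lists is the authors' own value, with no stated scale, and was ranked within 1 list only. Starts are given counted from 1. No genome or annotation of mm9 was used, so regions have no gene names or sequences.

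Peaks were merged with Python 3.11.15, pandas 2.3.3 and scipy 1.17.1, and the 11871 regions matched those of bedtools 2.31.1 with 0 that differed. The code was tested on simulated data of 3000 regions, and all were classed right. Shares carry exact Clopper-Pearson intervals at 95%, for counting error only; odds ratio intervals use the normal approximation, and stratified odds ratios are Mantel-Haenszel estimates from statsmodels 0.14.6. Named regions were, by rule, the 8 with and the 8 without RYBP of highest mean percentile, the 5 longest, the 3 nearest and 3 farthest from ESC Mel18, the 3 kept regions of shortest ESC overlap, and the 3 groups with the most members, ties by length. The members, rules and alternatives were chosen with earlier results of these data known.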

Additional observations from a re-analysis of the deposited data

How the results depend on the processing

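No paired analysis was possible because each list came from 1 sample. All 12 recomputed odds ratios of RYBP, gained over kept regions, stayed below 1 with p below 0.05, from 0.274 with chromosomes X and Y included to 0.579 when stratified by Ring1b score. Stratification by Ring1b or Cbx2 score, the limit of 10 kb and merging without the RYBP list were added after the data were examined. Stratification and the limit of 10 kb were not combined, and the limit was set on gained regions only. Restricting every list to its upper 50% by score left 225 gained regions; their median length was 3591 bp and RYBP was present at 67.1%; fewer peaks entered this setting by construction. With lists of equal length (3679 peaks), the median length was 3028 bp, RYBP was at 65.1%, and 88.6% lay over 10 kb from ESC Mel18. With peaks within 1 kb joined, the median length was 2815.5 bp, RYBP was at 85.9% and 90.1% lay over 10 kb away. Among gained regions over 10 kb from ESC Mel18, RYBP was at 87.5%. The causes of these moves were not tested. In all, 10 recomputed values moved in this way and 33 stayed within 1.5 times the count, within the interval or on the same side of 0.05. Odds ratios were judged by p alone and so all counted as staying. Those from 0.379 (peaks within 1 kb joined) up to 0.579 lay above the main interval of 0.205 to 0.377. Read depth was unknown, so a missing peak is not shown to be missing binding.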

Other observations

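The X chromosome, left out by the rule, held 13 regions with MES Mel18, Cbx2 and Ring1b peaks and no ESC Mel18 peak. RYBP was present at 3 of the 13 (23.1%, exact interval 5.04 to 53.8), against 31 of 47 kept regions on the X chromosome (66.0%, interval 50.7 to 79.1). Of the 13, 9 lay over 10 kb from an ESC Mel18 peak. Their Mel18 peaks had a median percentile of 70.0 and their Ring1b peaks a median of 61.4. The X chromosome held 1.51% of all RYBP peaks (interval 1.25 to 1.81), against 2.81% of MES Mel18, 2.38% of Ring1b, 2.12% of Cbx2 and 2.61% of ESC Mel18 peaks. These values were seen after the autosomes had been analysed and were not tested.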
